A study of Mus musculus with 75 samples.

Results

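The late rising genes are 38 of the 24984 genes counted in cultured mouse skin fibroblasts. Their mean RNA level at passage 5 (P5) was near that at passage 1 (P1) and was higher at passage 7 (P7), the passage at which the study called the cells senescent. They were chosen from the RNA-seq libraries of passages P1, P3, P5 and P7. Each count was scaled to the sum of its library (CPM, the counts of a gene per 1000000 counts of its library), and log2(CPM + 1) was averaged within a passage. A gene was kept with a mean of at least 5 CPM at P7, a difference P7 minus P5 of at least 0.8 on that log2 scale, and a difference P5 minus P1 of less than 0.5 in either direction. Of 10058 genes at the CPM floor, 96 met the step between P5 and P7, and 38 of these were also flat from P1 to P5. The P1, P5 and P7 values therefore chose the genes, and their differences are described below without a test.

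The passage data came from untreated skin fibroblasts of 2-month-old female C57BL/6 mice, with 4 RNA-seq libraries at each of P1, P3, P5 and P7, and with ATAC-seq peak lists of 4 samples at P1 and 3 each at P3, P5 and P7. In the other experiments, fibroblasts of the same strain carried a lentivirus. E2f4 was overexpressed from a doxycycline-inducible vector in pre-senescent cells (P4), and the control cells carried the EGFP vector without it (2 libraries each). E2f4 was knocked down in proliferating cells (P3) with the hairpin sh1 (3 libraries) against a non-targeting hairpin (nt, 3 libraries). Tead1 was knocked down with sh3 or sh4 in cells whose passage is not given for that experiment, and Atf3 with sh5 or sh6 in pre-senescent cells (3 libraries of each hairpin and 3 of nt in each experiment). Hairpin cells were selected with puromycin. In general, the methods name P2 and P3 cells as proliferating and P6 cells as those used for interventions in senescence. The methods name both newborn and 2-month-old mice as sources of the manipulated cells and do not say which library came from which. Nothing in the labels says whether the libraries of a group came from separate mice or cultures, so the p-values below measure the spread between these libraries, which may be technical. For its bisulfite samples the study speaks of independent series over the passages, which it does not state for the RNA-seq libraries. The main tests did not pair libraries. The 44 RNA-seq libraries held 9147324 to 27552949 counts in genes, and the 16 passage libraries 13430229 to 15725823. All 10 fibroblast markers checked were detected in them. Their sums were 25700 to 27730 CPM at P1, 33150 to 41320 CPM at P5 and 34080 to 37080 CPM at P7. Some other marker sums were higher at P1 than at P5, as for endothelium (180 to 195 against 19.3 to 23.2 CPM) and keratinocytes (61.7 to 391 against 2.82 to 5.67 CPM). The pericyte and smooth muscle sums overlapped (1818 to 2892 and 2335 to 3072 CPM), as did those of Schwann cells and melanocytes. The part of these cells in the P1 levels was not tested.

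Replicative senescence is a lasting arrest of division that primary cells reach after serial passage. Senescent fibroblasts are known for a secretory phenotype, in which cytokines, growth factors and enzymes are released and act on neighbouring cells through surface receptors. E2F4 is an E2F family member that acts with pocket proteins to repress cell cycle genes, TEAD1 is the DNA-binding partner of the Hippo pathway co-activators YAP and TAZ, and ATF3 is a stress-induced factor of the bZIP class that pairs with AP-1 proteins.

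The 38 genes lay on 18 chromosomes, and only 2 pairs were within 1 Mb of each other. These were Nmnat2 and Rgs16 on chromosome 1, with a gap of 621087 bases, and Ppbp and Ereg on chromosome 5, with a gap of 304554 bases (RefSeq annotation of GRCm38.p6, the build of the files). Among 86 other genes at the CPM floor within 100 kb of a late rising gene, 1 had a step between P5 and P7 of at least 0.8, or 1.16%, against 0.579% of all other genes at the floor. That neighbour was Ptgs2, the inducible prostaglandin synthase, whose step was 2.18. It lies 50809 bases from the noncoding late riser Ptgs2os2, and it was not itself a late riser, since its P5 minus P1 difference was 1.27. The late rising genes were shorter than other genes at the floor, with a median exonic length of 2026 against 3278 bases and a median of 5 against 10 exon blocks, while their exonic GC content was similar (medians of 50.9% and 50.3%). Counting ignored strand, and exons of 9 of the 38 (23.7%) overlap another gene, in each case on the other strand. On either strand, 25.1% of genes at the floor have such an overlap. Reads in the overlap may have been added to or left out of the counts of these 9 genes, which was not tested. The partners with known products were Fgf2 for Nudt6, Zcchc17 for Fabp3, Tmem190 for Il11 and Dnaaf5 for Prkar1b. Fgf2 itself had a P7 minus P5 difference of 0.75 and a P5 minus P1 difference of -0.01.

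Promoters of 32 of the 38 genes were present in the RefSeq promoter table used here (GRCm38.p6, 42 promoters, from 250 bases before to 50 bases after a start). They were searched for motifs of the manipulated factors and of related stress pathways, on both strands unless said otherwise. For AP-1 the string TGANTCA was used, which is looser than the consensus TGA(C/G)TCA. It was present in 4 of the 42 and in 7.81% of all 32851 promoters of the same length. Atp8b4 (TGACTCA) and Il11 (TGAGTCA) hold the consensus, whereas Ppbp (TGAATCA) and Slc6a12 (TGATTCA) match only the looser string. The share of all promoters with the consensus was not computed. The TEAD motif GGAATG was found in 6 of the 42 and in 14.7% of all. The E2F motifs GGCGGGAA and GGCGCGAA were in 3 of the 42 and in 2.70% of all. The cyclic AMP response element TGACGTCA, which ATF proteins can bind, was in none of the 42 and in 1.79% of all. The antioxidant response element TGACNNNGC, which can overlap an AP-1 match, was in 5 and in 12.4% of all, the ATF4-type element TGATGNAA in 1 and in 3.97% of all, and TATAAA on the sense strand in 4 and in 8.32% of all. The windows are short, and a match is a stretch of letters, not a bound site. The promoters below are shown because each holds a motif of a factor that was manipulated and belongs to a gene whose RNA is followed through the results. Capitals mark the motif matches, and positions are counted from the start site, with negative numbers upstream.
Ppbp, chr5:90768268-90768567, plus strand (AP-1 at -204, TEAD at -178, TATAAA at -30 and -8): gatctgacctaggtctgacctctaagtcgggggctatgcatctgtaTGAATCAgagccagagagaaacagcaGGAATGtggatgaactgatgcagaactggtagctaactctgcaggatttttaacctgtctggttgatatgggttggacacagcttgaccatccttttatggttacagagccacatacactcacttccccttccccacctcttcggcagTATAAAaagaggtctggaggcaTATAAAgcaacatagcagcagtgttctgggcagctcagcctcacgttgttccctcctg
Il11, chr7:4778092-4778391, minus strand (AP-1 at -98): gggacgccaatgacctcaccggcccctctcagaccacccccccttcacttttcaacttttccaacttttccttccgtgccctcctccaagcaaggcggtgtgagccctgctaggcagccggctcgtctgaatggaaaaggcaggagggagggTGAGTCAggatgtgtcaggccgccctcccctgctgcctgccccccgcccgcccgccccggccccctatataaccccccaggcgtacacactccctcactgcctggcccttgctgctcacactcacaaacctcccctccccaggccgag
Ankrd1, chr19:36119795-36120094, minus strand (TEAD at -210 and -123, antioxidant element at -72): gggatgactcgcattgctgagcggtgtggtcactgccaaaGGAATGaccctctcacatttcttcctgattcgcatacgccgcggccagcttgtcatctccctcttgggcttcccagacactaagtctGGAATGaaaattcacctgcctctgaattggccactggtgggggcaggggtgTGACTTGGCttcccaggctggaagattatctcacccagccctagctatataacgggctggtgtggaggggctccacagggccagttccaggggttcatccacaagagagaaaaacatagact
Nudt6, chr3:37419547-37419846, minus strand (E2F at -198, -136 and -10, antioxidant element at -159 and -33): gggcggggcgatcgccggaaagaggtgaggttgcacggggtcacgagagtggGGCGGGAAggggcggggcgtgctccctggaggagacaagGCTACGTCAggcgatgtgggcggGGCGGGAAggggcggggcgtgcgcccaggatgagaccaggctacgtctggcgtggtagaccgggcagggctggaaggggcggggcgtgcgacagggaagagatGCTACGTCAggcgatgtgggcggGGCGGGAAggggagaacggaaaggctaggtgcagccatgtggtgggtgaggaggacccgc
The other AP-1 matches were in the promoters of Atp8b4 and Slc6a12, the other TEAD matches in those of Ckb, Ptgs2os2 and Prkar1b, and the other E2F matches in those of Prkar1b and Tssc4.

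The step between P5 and P7 ranged from 0.81 to 2.51 on the log2(CPM + 1) scale, with a median of 1.02. In 32 of the 38 genes all 4 P7 libraries were above all 4 P5 libraries, and 5.82% of the genes at the floor had this order. The 6 exceptions were Thsd7a, Myom1, Pqlc1, Slc6a12, Polr2l and Smim4. In 29 of the 38 the P7 libraries were above all 12 others (4.01% of genes at the floor). The rule favours such orders, and nothing is read from these counts. Mean levels at P7 ran from 5.04 CPM for Bdkrb2 to 887.5 CPM for Grem1, with a median of 19.7 CPM against 35.3 CPM for all genes at the floor. The log2(CPM + 1) scale understates the change of the lowest genes, and 12 of the 38 had a mean under 10 CPM at P7. Per kb of exon, the highest P7 levels were those of Cck (581 CPM per kb) and Grem1 (541.5 CPM per kb), and the lowest was that of Tchh (1.07 CPM per kb).

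**Figure D1:**
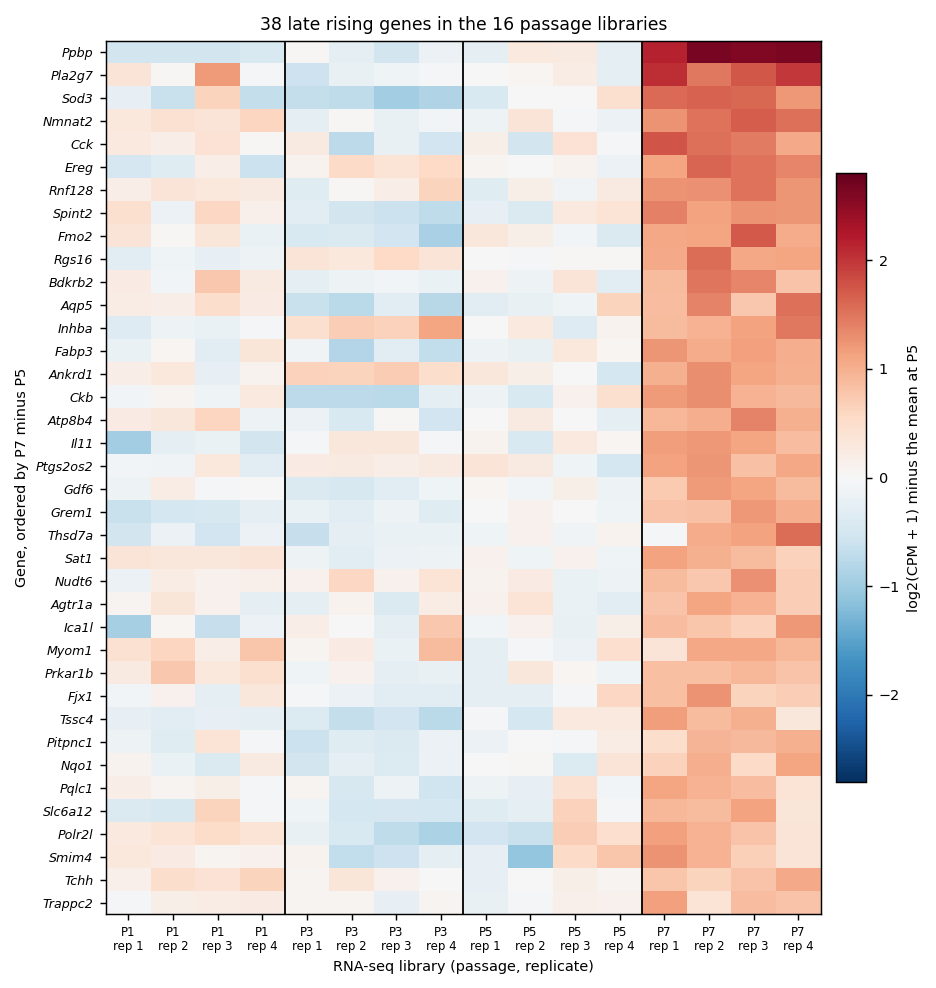
Heat map of the 38 late rising genes (rows, ordered by P7 minus P5) in the 16 passage libraries (columns, 4 each of P1, P3, P5 and P7). Colour is the log2(CPM + 1) of a library minus the gene's mean at P5. The P7 means are above the P5 means in all rows, single libraries overlap in 6 rows such as Thsd7a and Polr2l, and the P3 columns differ in direction between genes.

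Secreted signals are described first. Ppbp encodes pro-platelet basic protein, the precursor of a CXC chemokine that attracts neutrophils, and lies at chr5:90768518-90770063. Its values were 0, 0, 0 and 0.0673 CPM at P1, 0.457, 0.207, 0 and 0.289 CPM at P3, 0.191, 0.745, 0.705 and 0.193 CPM at P5, and 5.34, 8.05, 7.64 and 7.87 CPM at P7. Over the 4 libraries of a passage these were 1, 14, 28 and 405 reads from P1 to P7, so the gene was near the limit of detection before P7. Each P7 library was above each earlier one. The nearby chemokine gene Cxcl5, 6893 bases away, had a P7 minus P5 difference of 0.71, just under the threshold of the rule. Cxcl3, 16038 bases away, met the step (0.81) and was flat from P1 to P5 (0.16), but its P7 mean of 1.69 CPM was under the floor. Pf4 and Cxcl15, also nearby, were barely detected at P7 (0.036 and 0.018 CPM), with steps of -0.016 and 0.025.

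Cck, the gene of the peptide hormone cholecystokinin (chr9:121489824-121495694), had the highest P7 level of the 38 per kb. It had 216, 202, 236 and 183 CPM at P1, 211, 106, 153 and 122 CPM at P3, 201, 124, 236 and 172 CPM at P5, and 603, 519, 491 and 372 CPM at P7. The lowest P7 library was still above every earlier library, although the P7 libraries spread from 372 to 603 CPM. Ereg, the gene of epiregulin, a ligand of the EGF receptor, had 5.36, 5.96, 9.01 and 4.85 CPM at P1, 8.43, 11.7, 10.5 and 12 CPM at P3, 8.27, 7.79, 8.39 and 6.89 CPM at P5, and 18, 26.4, 24.4 and 21.8 CPM at P7. Its P7 minus P5 difference was 1.41.

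The TGF-beta family was represented by a subunit, a ligand and an antagonist. Inhba encodes the subunit that forms activin A. Its values were 301, 350, 341 and 378 CPM at P1, 530, 622, 605 and 824 CPM at P3, 383, 466, 301 and 411 CPM at P5, and 710, 761, 842 and 1071 CPM at P7. Inhba was thus high at P3, back near its P1 level at P5 and high again at P7, and 1 P3 library lay within the P7 range. Grem1, an antagonist of bone morphogenetic proteins, had 294, 321, 330 and 378 CPM at P1 and 398, 370, 407 and 358 CPM at P3. It then had 457, 493, 449 and 414 CPM at P5 and 789, 801, 1047 and 913 CPM at P7. Its P5 minus P1 difference of 0.46 was close to the limit of the rule, and every P5 library was above every P1 library. Gdf6, a ligand of the bone morphogenetic protein group, rose from a P5 mean of 16.1 CPM to 32.9 ± 4.86 CPM (SD, n = 4) at P7. Il11, a cytokine of the interleukin-6 family that signals through gp130, had 0.596, 1.62, 1.77 and 1.21 CPM at P1, 2.09, 2.89, 2.92 and 2.02 CPM at P3, 2.35, 1.35, 2.82 and 2.25 CPM at P5, and 6.13, 6.27, 5.77 and 4.71 CPM at P7. Its P7 libraries were above all others.

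Extracellular enzymes and inhibitors also had P7 above P5 in every library. Pla2g7 encodes the secreted phospholipase that inactivates platelet-activating factor, and had 4.07, 4.27, 4.80 and 3.16 CPM at P5 and 20.1, 13.1, 15.9 and 18.8 CPM at P7. At P1 it had 5.51, 4.19, 10.5 and 3.84 CPM, so 2 of the P1 libraries were above the P5 range and below P7. Pla2g7 is also expressed by macrophages, and the summed level of 10 macrophage markers was 366 to 558 CPM at P1, 22.7 to 31.3 CPM at P5 and 33.5 to 51.4 CPM at P7, whose part in this gene was not tested. Sod3, the extracellular superoxide dismutase, had 67.6, 90.8, 90.6 and 124 CPM at P5 and 276, 289, 280 and 213 CPM at P7. Spint2, a membrane-anchored inhibitor of serine proteases, had 1.21, 0.948, 2.11 and 2.38 CPM at P5 and 5.91, 4.70, 5.19 and 5.13 CPM at P7. In bulk RNA, fewer cells of a type and less RNA per cell cannot be told apart, and this holds for every level given here.

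**Figure D2:**
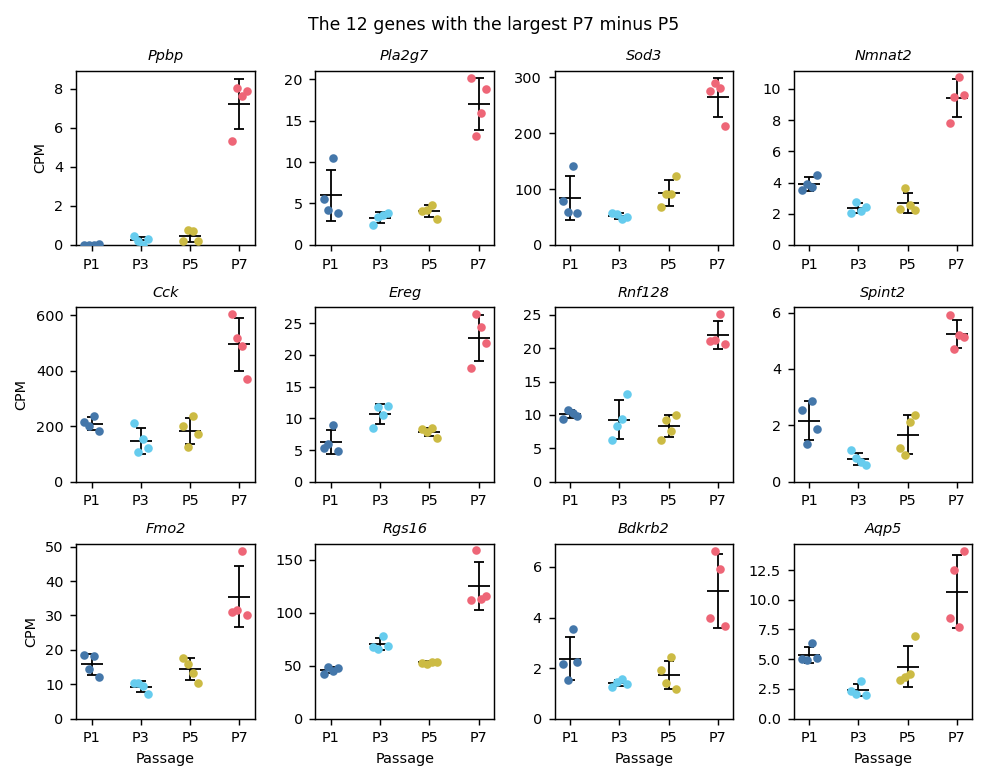
Level in CPM (y axis, linear from 0) at P1, P3, P5 and P7 (x axis) of the 12 genes with the largest P7 minus P5 difference. Points are libraries, bars are means with SD (n = 4). In each panel the 4 P7 points lie above the 4 P5 points.

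Receptors and intracellular signalling genes formed a further group. Bdkrb2, the bradykinin B2 receptor, had 1.91, 1.42, 2.43 and 1.16 CPM at P5 and 3.97, 6.63, 5.91 and 3.65 CPM at P7. Agtr1a, the angiotensin II type 1a receptor, had 5.79, 7.18, 4.48 and 4.12 CPM at P5 and 9.88, 12.6, 11.4 and 9.21 CPM at P7. Rgs16, which speeds the shut-off of G protein alpha subunits, had 52.8, 51.3, 53.8 and 53.9 CPM at P5 and 112, 159, 113 and 115 CPM at P7. The P5 and P7 ranges were apart in all of these genes. Rnf128, a transmembrane ubiquitin ligase, had 6.29, 9.21, 7.62 and 9.98 CPM at P5 and 21.1, 21.2, 25.2 and 20.6 CPM at P7. Prkar1b, a regulatory subunit of protein kinase A, and Pitpnc1, a phosphatidylinositol transfer protein, had steps of 0.85 and 0.84. Thsd7a, a membrane protein with thrombospondin repeats, had 7.57, 9.01, 7.62 and 8.95 CPM at P5 and 7.93, 18, 19.2 and 26.2 CPM at P7, so its first P7 library lay within the P5 range.

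Enzymes of cofactor, redox and small-molecule metabolism and carriers made up the next group. Nmnat2, which makes NAD from nicotinamide mononucleotide, had 2.29, 3.66, 2.56 and 2.25 CPM at P5 and 7.79, 9.48, 10.7 and 9.63 CPM at P7. Fmo2, a flavin-containing monooxygenase, had 17.7, 16, 13.3 and 10.4 CPM at P5 and 31.2, 31.7, 48.7 and 30.1 CPM at P7. Nqo1, a quinone reductase and a standard target of NRF2, had 27.9, 28.9, 21.5 and 36.6 CPM at P5 and 44.7, 58.6, 41.6 and 61.8 CPM at P7. In all of these genes the P5 and P7 ranges were apart. Sat1, which acetylates polyamines, Ckb, the brain-type creatine kinase, and Nudt6, a Nudix hydrolase, had steps of 0.91, 1.09 and 0.90. Aqp5, a water channel, had 3.24, 3.52, 3.78 and 6.96 CPM at P5 and 8.44, 12.5, 7.71 and 14.1 CPM at P7. Fabp3, a fatty acid binding protein, had 6.93, 6.64, 9.74 and 8.12 CPM at P5 and 19.8, 17.0, 18.4 and 16.8 CPM at P7. Aqp5 had 1 P5 library near the lowest P7 library, while the Fabp3 ranges were far apart. Atp8b4, a phospholipid flippase, and Slc6a12, a betaine and GABA transporter, had steps of 1.09 and 0.82.

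The remaining genes were of mixed function. Ankrd1 encodes a cardiac ankyrin repeat protein and is known as a YAP and TEAD target. It had 11.8, 12.7, 8.56 and 11 CPM at P1, 16.5, 16.3, 17.2 and 14.8 CPM at P3, 12.9, 11.5, 10.3 and 6.96 CPM at P5, and 21.4, 26.6, 23.0 and 21.4 CPM at P7. Its levels thus followed the order P7, P3, then P1 and P5 together. Myom1, a sarcomere protein, rose from a P5 mean of 3.80 CPM to 7.76 ± 1.87 CPM (SD, n = 4) at P7 with overlapping ranges. The summed level of 8 skeletal muscle markers was 28.9 to 56.1 CPM at P5 and 36.7 to 101 CPM at P7, with the defining genes Myog, Myod1 and Ckm at 0 in all P7 libraries, and its part in Myom1 was not tested. Polr2l, a small subunit shared by RNA polymerases, had 12, 11.3, 29.6 and 25.4 CPM at P5 and 40.9, 36.2, 32.0 and 23.4 CPM at P7, so 2 of the P5 libraries lay above the lowest P7 library. Smim4, Tssc4 and Pqlc1, whose RefSeq symbol is Slc66a2, also had their lowest P7 value in replicate 4. Replicate 4 was the lowest of the P7 libraries in 17 of the 38 genes and replicate 2 the highest in 12. The shares over all genes at the floor were not computed, so nothing is read from these counts.

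At the edges of the rule, Trappc2, a subunit of a vesicle-tethering complex, was kept with a step of 0.8055 and Tchh, the hair follicle protein trichohyalin, with 0.8109, while Sap18 at 0.7982 and Lrrc32 at 0.7939 were left out. On the flat side Myom1 was kept with a P5 minus P1 difference of -0.4972 and Ppbp with 0.4964, while Lmod1 at 0.5221 and Olr1 at 0.5652 were left out. Membership also depended on the scaling of the libraries. With TMM scaling in place of library sums the rule gave 52 genes, of which 34 were among the 38, and with DESeq2 size factors it gave 51, again with 34 shared. The genes lost under TMM were Ppbp, Il11, Grem1 and Ica1l. TMM scaling moved the median P5 minus P1 difference of all genes at the floor from -0.096 to 0.050, and the median P7 minus P5 difference from -0.065 to -0.0075. Cck, Ereg, Rnf128, Fmo2, Rgs16, Aqp5, Inhba, Fabp3, Ankrd1, Ckb, Gdf6 and Sat1 were members under the rule and every alternative tried, including the removal of each library in turn.

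P3 was not used by the rule, although its comparison with P1 shares the P1 libraries. Under edgeR's quasi-likelihood test, 8 of the 38 genes were higher and 9 lower at P3 than at P1 with an adjusted p under 0.05, against 16% and 17.5% of the 13442 genes tested (33.4% either way). The counts of both directions were near those shares of 38 genes. Inhba rose by 1.03 ± 0.15 (log2 fold change ± SE, adjusted p = 2.57e-05), Ereg by 0.88 ± 0.18 (adjusted p = 0.000971), Rgs16 by 0.73 ± 0.11 (adjusted p = 2.98e-05), Il11 by 1.05 ± 0.28 (adjusted p = 0.00806) and Ankrd1 by 0.68 ± 0.16 (adjusted p = 0.0024). Spint2 changed by -1.28 ± 0.32 (adjusted p = 0.00481), Aqp5 by -1.03 ± 0.26 (adjusted p = 0.00542), Polr2l by -0.86 ± 0.25 (adjusted p = 0.0137) and Sat1 by -0.42 ± 0.09 (adjusted p = 0.00192). Ppbp passed the test as well on 1 read at P1 and 14 reads at P3, so no fold is given, and its call was lost in 5 of 8 fits that left out a library. The calls of Fmo2, Grem1, Ica1l, Nmnat2, Pla2g7 and Prkar1b were also lost in 1 to 5 of those 8 fits, that of Grem1 without P1 replicate 1. Counting libraries that do not overlap, P3 lay below both P1 and P5 in Fmo2, Aqp5 and Sat1 and above both in Rgs16, Inhba and Ankrd1, that is, in 3 and 3 genes, against 2.67% and 1.41% of genes at the floor. The rule keeps P1 and P5 close, which favours such orders, so nothing is read from the comparison with these shares. In the genes named, flatness between P1 and P5 did not mean flatness at P3.

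Of the 17 gene lists of senescence-related pathways drawn up for comparison, few held a late rising gene. The late risers were 38 of the 10058 genes at the CPM floor. At that share, lists this short would hold few or none, so nothing is read from a list without one. Ereg, Inhba and Grem1 were 3 of the 38 growth factors and antagonists at the CPM floor, Il11 was 1 of 16 cytokines and chemokines (Ppbp and Gdf6, though secreted signals, were on none of the lists), Nqo1 was 1 of 24 NRF2 antioxidant genes and Fabp3 was 1 of 14 genes of solute and lipid handling. None of the 32 AP-1 and immediate early genes, 27 p53 target genes, 21 matrix metalloproteinase and plasminogen genes, 16 NF-kB genes or 27 S-phase and mitosis genes at the floor was a late riser. The step alone was met by 5 of the 16 cytokines and chemokines and 5 of the 38 growth factors and antagonists. It was met by 2 of the 32 AP-1 genes, 2 of the 21 metalloproteinase genes and no gene of the p53, NF-kB or S-phase lists. Of the 10058 genes at the floor, 96 met it. Of the 27 S-phase and mitosis genes, 26 were lower at P5 than at P1 by at least 0.5, so these had already changed by P5. Of the 10058 genes at the floor, 1751 were lower by as much. The list of growth factors and antagonists had calls in both directions in the other experiments, given here beside the shares of all genes tested. With E2f4 overexpression 8 rose and 24 fell of 48 tested (28.9% and 28.2% of all genes), and with sh1 14 rose and 3 fell of 43 (10% and 7.79%). With Tead1 sh3 23 rose and 8 fell of 49 (17.6% and 17.7%), and with sh4 20 rose and 8 fell (14.4% and 14.7%). With Atf3 sh5 13 rose and 13 fell of 47 (17.7% and 18.1%), and with sh6 19 rose and 17 fell (23.8% and 26%).

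The targeted genes were checked before the late risers were followed into the other experiments. E2f4 was at 1116 and 1171 CPM with overexpression, where reads of the transgene count too, and at 35.9 and 47.3 CPM in the control libraries (4.79 ± 0.15, edgeR adjusted p = 7.07e-08). With sh1 it was at 21.6, 20.3 and 21.6 CPM, against 59.7, 61.1 and 59.4 CPM with nt, a log2 fold change of -1.50 ± 0.09 (edgeR adjusted p = 2.14e-07). Tead1 was lower with sh3 (-0.96 ± 0.04, adjusted p = 4.63e-17) and with sh4 (-0.78 ± 0.04, adjusted p = 8.58e-15). Atf3 was low in all libraries of its own experiment, at 3.34, 2.87 and 2.82 CPM with nt, 1.49, 2.12 and 0.458 CPM with sh5, and 1.47, 1.51 and 2.06 CPM with sh6. The sh5 difference was -1.14 ± 0.39 (adjusted p = 0.0447) and moved to -0.71 without sh5 replicate 3 and to -1.63 without sh5 replicate 2, and its call was lost without any 1 of the other 4 libraries (adjusted p = 0.0764 to 0.115). The sh6 difference of -0.79 ± 0.39 did not pass the test (adjusted p = 0.114). Atf3 was also lower with both Tead1 hairpins (-0.68 ± 0.20, adjusted p = 0.00864, and -0.64 ± 0.20, adjusted p = 0.0146).

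All 38 genes passed the filter on low counts in each experiment. With E2f4 overexpression, 11 rose and 20 fell at an adjusted p under 0.05, against 28.9% and 28.2% of the 13199 genes tested (57.2% either way), and the median log2 fold change of the 38 was -0.46 against 0.0088 for all genes. The share that fell, 52.6% of the 38, was above the background, and the share that rose, 28.9%, was equal to it. Among signals, Grem1 was at 159 and 123 CPM with E2f4 and at 601 and 555 CPM with the control vector, a change of -2.02 ± 0.13 (adjusted p = 3.33e-06). Inhba was at 362 and 284 CPM against 1046 and 907 CPM (-1.58 ± 0.13, adjusted p = 1.01e-05). Il11 went the other way, with 28.1 and 27.1 CPM against 9.63 and 11 CPM (1.44 ± 0.14, adjusted p = 2.62e-05). Ppbp also rose, with 10.2 and 10.9 CPM against 2.39 and 2.18 CPM (2.21 ± 0.20, adjusted p = 1.6e-05). The secreted genes thus split in direction. Bdkrb2 rose the most among the 38, from 0.840 and 0.803 CPM to 4.36 and 3.56 CPM (2.28 ± 0.30, adjusted p = 0.000135), and Polr2l rose by 1.72 ± 0.13 (adjusted p = 7.71e-06). Ica1l, a relative of the islet cell autoantigen ICA1, fell the most, from 15.3 and 12.6 CPM to 3.01 and 2.56 CPM (-2.30 ± 0.19, adjusted p = 1.14e-05). Fmo2 changed by -2.26 ± 0.38 (adjusted p = 0.000589), from 2.74 and 4.25 CPM to 0.907 and 0.474 CPM. Myom1 changed by -1.60 ± 0.16 (adjusted p = 2.49e-05), and the skeletal muscle sum was 22.4 to 23.6 CPM with E2f4 and 67.6 to 76 CPM in the controls, with Myog, Myod1 and Ckm at 0 in both, whose part was not tested. With 2 libraries a group, 7 calls were lost when 1 library was left out, those of Ckb (without E2f4 replicate 1, adjusted p = 0.0598), Ereg, Fjx1 and Rnf128 (without E2f4 replicate 2, adjusted p = 0.15, 0.0801 and 0.112), Sod3 (without control replicate 1, adjusted p = 0.141), Fabp3 (2 libraries, highest adjusted p = 0.201) and Pitpnc1 (3 libraries, highest adjusted p = 0.269).

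With the E2f4 hairpin sh1, 22 of the 38 genes rose and 1, Thsd7a, fell, against 10% and 7.79% of the 12310 genes tested (17.8% either way). The share of the 38 that rose was 57.9%, and 34 of the 38 had a positive difference. The median difference was 0.45 against -0.0086 for all genes, and 4 of the 22 rose by more than 2-fold (1.46% of all genes), these being Fmo2, Sod3, Il11 and Nmnat2. Sod3 was at 231, 259 and 204 CPM with sh1 and at 96.0, 98.0 and 87.1 CPM with nt (1.31 ± 0.08, adjusted p = 2.73e-07). Fmo2 was at 7.55, 6.78 and 6.41 CPM against 2.04, 2.37 and 3.18 CPM (1.45 ± 0.24, adjusted p = 0.00076). Inhba was at 626, 665 and 640 CPM against 429, 397 and 440 CPM (0.61 ± 0.06, adjusted p = 1.3e-05). In these genes every sh1 library was above every nt library. Most differences were smaller, as for Grem1 (0.42 ± 0.08, adjusted p = 0.00186), Cck (0.81 ± 0.10, adjusted p = 7.81e-05), Ckb (0.60 ± 0.07, adjusted p = 8.78e-05) and Nqo1 (0.67 ± 0.11, adjusted p = 0.00063). The calls of Ankrd1, Nmnat2, Ptgs2os2, Rnf128, Smim4, Thsd7a and Trappc2 were each lost in 1 to 5 of 6 fits that left out a library (highest adjusted p of 0.0639 to 0.191), that of Thsd7a without nt replicate 1. Skeletal muscle markers summed to 111 to 136 CPM with sh1 and 74.2 to 77.0 CPM with nt, with Myog and Myod1 at 0 in both, and fibroblast markers to 27560 to 30760 CPM and 35770 to 37120 CPM. Of 32 interferon-stimulated genes tested, 31 rose and 0 fell with sh1, and 0 of that list were late risers. The RNA-seq libraries hold only this 1 hairpin against E2f4. The part of the marker and interferon shifts in these differences was not tested.

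**Figure D3:**
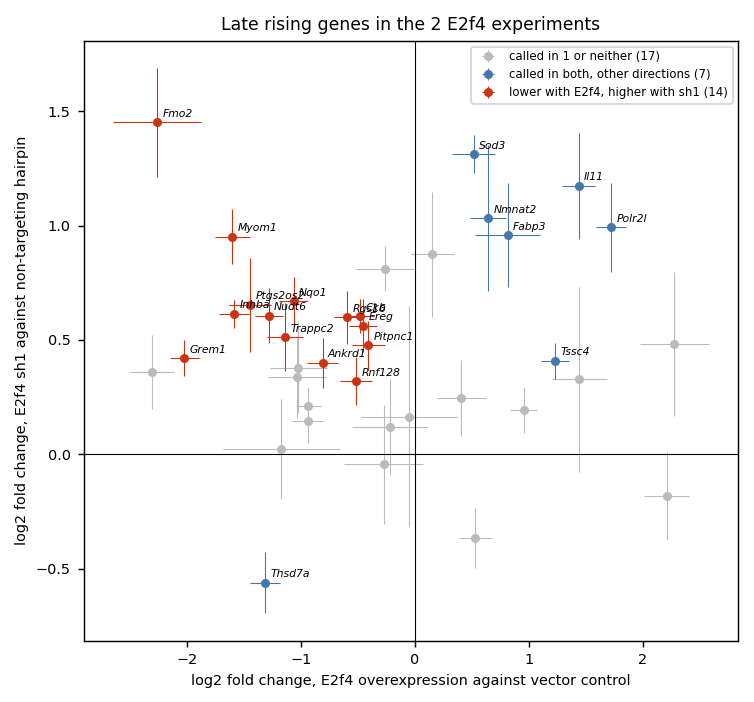
Log2 fold change of each late rising gene with E2f4 overexpression (x axis) against that with E2f4 sh1 (y axis), both from edgeR, with bars of 1 SE. Coloured points passed the test in both experiments. The 14 genes that fell with overexpression and rose with sh1 lie at the upper left, and none of the 38 lies among those that rose and fell in that order.

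The E2f4 experiments used separate control libraries. Among 12227 genes tested in both, 3.63% fell with overexpression and rose with sh1, and 14 of the 38 late risers did so. These were Ereg, Rnf128, Fmo2, Rgs16, Inhba, Ankrd1, Ckb, Ptgs2os2, Grem1, Nudt6, Myom1, Pitpnc1, Nqo1 and Trappc2, which make up 70.0% of the 20 that fell with overexpression and 63.6% of the 22 that rose with sh1. Over all genes tested in both experiments, 444 had this pattern. Of all genes tested in each experiment, 3727 fell with overexpression and 1233 rose with sh1. Both calls were kept under every alternative but the 2-fold threshold by 7 of the 14 late risers, namely Fmo2, Rgs16, Inhba, Grem1, Nudt6, Myom1 and Nqo1. A further 6 genes rose in both experiments (2.34% of all genes), these being Sod3, Nmnat2, Fabp3, Il11, Tssc4 and Polr2l. Thsd7a fell in both (1.46%), and no late riser rose with overexpression and fell with sh1 (3.86%). Nudt6, whose promoter above holds 3 E2F matches, was at 17.8 and 17.9 CPM against 45.0 and 42.6 CPM with overexpression (-1.28 ± 0.12, adjusted p = 2.32e-05) and at 25.9, 26.1 and 21.7 CPM against 15.7, 17.9 and 15.2 CPM with sh1 (0.61 ± 0.12, adjusted p = 0.00309). The other genes with an E2F match did not share this pattern, since Tssc4 rose in both experiments and Prkar1b fell with overexpression (-0.94 ± 0.14, adjusted p = 0.000248) with a sh1 difference of 0.15 ± 0.10 (adjusted p = 0.334).

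With the Tead1 hairpins the late risers moved in both directions. With sh3, 13 rose and 15 fell (17.6% and 17.7% of the 13012 genes tested, 35.4% either way), and with sh4, 8 rose and 14 fell (14.4% and 14.7%, 29.1% either way). The medians of the 38 were -0.069 and -0.10, against 0.0039 and 0.0011 for all genes. Both hairpins were compared with the same nt libraries, so their values are given side by side. In the sequences that the study lists, sh3 and sh4 target the same Tead1 site, shifted by 1 base. Calls shared by these hairpins are therefore not independent of each other. Ppbp was at 1.94, 3.24 and 3.75 CPM with sh3, 2.85, 2.32 and 2.21 CPM with sh4, and 7.22, 6.99 and 6.79 CPM with nt (-1.23 ± 0.19, adjusted p = 5.56e-06, and -1.51 ± 0.20, adjusted p = 4.11e-07). Slc6a12 was at 0.914, 1.54 and 1.52 CPM, 1.76, 1.27 and 1.40 CPM, and 4.18, 3.13 and 3.65 CPM with nt (-1.46 ± 0.26, adjusted p = 3.86e-05, and -1.31 ± 0.25, adjusted p = 0.000167). In both genes the hairpin libraries lay below all nt libraries. Aqp5 rose, with 4.92, 5.43 and 5.22 CPM, 3.98, 4.09 and 3.07 CPM, and 1.77, 1.02 and 1.49 CPM with nt (1.85 ± 0.22, adjusted p = 6.54e-08, and 1.36 ± 0.23, adjusted p = 2.85e-05). Nqo1 was at 114, 120 and 114 CPM with sh3, 82.2, 76.1 and 79.7 CPM with sh4, and 58.0, 57.2 and 52.0 CPM with nt (1.05 ± 0.05, adjusted p = 7.52e-16, and 0.50 ± 0.05, adjusted p = 1.3e-08). Sat1 (-0.75 ± 0.05, adjusted p = 2.39e-12, and -0.79 ± 0.05, adjusted p = 1.4e-12), Rnf128, Rgs16, Prkar1b and Fjx1 fell with both, and Nmnat2, Ereg and Ckb rose with both. Ankrd1, whose promoter above holds 2 TEAD matches, fell by small amounts (-0.36 ± 0.06, adjusted p = 8.18e-06, and -0.26 ± 0.06, adjusted p = 0.000709). Among the other genes with a TEAD match, Ppbp, Ptgs2os2 and Prkar1b fell and Ckb rose with both hairpins. The sh3 calls of Atp8b4, Il11, Pla2g7 and Ptgs2os2 and the sh4 calls of Fmo2, Sod3, Tchh and Trappc2 were lost in 1 to 4 of 6 fits that left out a library (highest adjusted p of 0.0611 to 0.213), those of Il11 and Fmo2 without nt replicates 2 and 3 respectively. Some marker sums also differed. The pericyte and smooth muscle sum was 4889 to 5228 CPM with sh3, 5583 to 5760 CPM with sh4 and 6571 to 6858 CPM with nt. The skeletal muscle sum was 64.5 to 75.0, 72.7 to 84.0 and 97.9 to 98.6 CPM, in the same order. Of 31 interferon-stimulated genes tested, 29 rose and 0 fell with sh3, and 11 rose and 1 fell with sh4. The part of these shifts in the Tead1 results was not tested.

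The direct difference between sh4 and sh3 was called in 7 of the 38 genes, against 7.37% of all genes. Nqo1 (-0.55 ± 0.05, adjusted p = 2.39e-08), Pla2g7 (-0.70 ± 0.11, adjusted p = 9e-05), Sod3 (-0.41 ± 0.05, adjusted p = 4.58e-06), Fmo2, Inhba and Grem1 were lower with sh4, and Myom1 was higher.

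The Atf3 hairpins gave different results. With sh5, 12 of the 38 rose and 4 fell, against 17.7% and 18.1% of the 13345 genes tested (35.9% either way), with a median difference of 0.0023 against -0.031. With sh6, 20 rose and 2 fell, against 23.8% and 26% (49.8% either way), with a median difference of 0.74 against -0.019, and 15 of the 20 rose by more than 2-fold (4.83% of all genes). Ereg was at 39.3, 34.1 and 41.9 CPM with sh5, 118, 128 and 131 CPM with sh6, and 16.3, 13.9 and 14.8 CPM with nt (1.35 ± 0.10, adjusted p = 3.62e-05, and 3.11 ± 0.10, adjusted p = 2.67e-08). Inhba was at 688, 664 and 727 CPM, 999, 1024 and 1076 CPM, and 343, 337 and 327 CPM with nt (1.04 ± 0.06, adjusted p = 9.82e-06, and 1.67 ± 0.06, adjusted p = 5.79e-08). Fmo2 was at 16.9, 15 and 20.7 CPM, 31.6, 33.9 and 32.4 CPM, and 9.62, 8.71 and 9.02 CPM with nt (0.94 ± 0.13, adjusted p = 0.00081, and 1.89 ± 0.13, adjusted p = 1.26e-06). In these genes the order was nt, sh5, sh6 without overlap. Grem1, Sat1, Trappc2, Ptgs2os2 and Pla2g7 also rose with both hairpins, Pla2g7 more with sh5 (1.65 ± 0.19, adjusted p = 0.000335) than with sh6 (0.98 ± 0.19, adjusted p = 0.00137). Il11, whose promoter holds an AP-1 match, was at 2.26, 3.61 and 2.98 CPM with sh5, 15.4, 12.2 and 13.4 CPM with sh6, and 2.87, 4.79 and 4.88 CPM with nt, and passed the test with sh6 (1.77 ± 0.23, adjusted p = 0.000105) but not with sh5 (-0.50 ± 0.24, adjusted p = 0.132). The other genes with an AP-1 match were Atp8b4, and Ppbp and Slc6a12, which match only the looser string. Ppbp differed by 0.21 ± 0.24 with sh5 (adjusted p = 0.51) and by 0.79 ± 0.23 with sh6 (adjusted p = 0.0161), and the direct difference between the hairpins did not pass the test (adjusted p = 0.055). Slc6a12 differed by 0.09 ± 0.57 with sh5 (adjusted p = 0.92) and by 2.84 ± 0.49 with sh6 (adjusted p = 0.00074). Atp8b4 went the other way, with 1.11 ± 0.22 with sh5 (adjusted p = 0.00405) and -0.43 ± 0.23 with sh6 (adjusted p = 0.147), and the hairpins differed by -1.55 ± 0.23 (adjusted p = 0.000269).

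Some genes moved in opposite directions. Ankrd1 was at 4.24, 5.98 and 6.30 CPM with sh5, 45.6, 44.8 and 42.0 CPM with sh6, and 7.01, 8.87 and 7 CPM with nt (-0.47 ± 0.16, adjusted p = 0.0459, and 2.59 ± 0.16, adjusted p = 6.58e-07). Nudt6 was at 84.0, 86.0 and 119 CPM, 24.9, 26.0 and 32.2 CPM, and 51.3, 45.1 and 47.3 CPM with nt (1.00 ± 0.14, adjusted p = 0.00103, and -0.74 ± 0.15, adjusted p = 0.00182). The direct difference between sh6 and sh5 was called in 25 of the 38 genes, against 52.6% of all genes, with 20 higher and 5 lower in sh6. The largest were Ica1l (3.08 ± 0.25, adjusted p = 5.54e-06), Ankrd1 (3.06 ± 0.16, adjusted p = 3.72e-07) and Slc6a12 (2.75 ± 0.49, adjusted p = 0.000942). The sh5 calls of Agtr1a, Ankrd1, Fjx1 and Pqlc1 and the sh6 calls of Bdkrb2, Ckb and Ppbp were lost in 1 to 6 of 6 fits that left out a library (highest adjusted p of 0.0551 to 0.164), that of Fjx1 without nt replicate 2. The libraries of the hairpins also differed in cell markers. The fibroblast sum was 16620 to 17740 CPM with sh6, 26100 to 38100 CPM with sh5 and 39550 to 41160 CPM with nt, with all 10 markers detected. The pericyte and smooth muscle sum was 6133 to 6440, 2036 to 2179 and 2941 to 3172 CPM, and the skeletal muscle sum 193 to 209, 14.2 to 17.9 and 37.8 to 39.8 CPM, in the same order. Among the defining muscle genes, Myog was at 0 with sh6 while Myod1 and Ckm were detected, and Myod1 and Ckm were at 0 in the sh5 and nt libraries. Of 31 interferon-stimulated genes tested, 0 rose and 10 fell with sh5, and 0 rose and 11 fell with sh6. The part of these shifts in the results was not tested. Sh5 replicate 3 stood apart in several genes, as in Sod3 (204, 204 and 62.1 CPM) and Polr2l (15.1, 14 and 34.6 CPM), and without it 20 of the 38 were called with sh5 in place of 16.

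**Figure D4:**
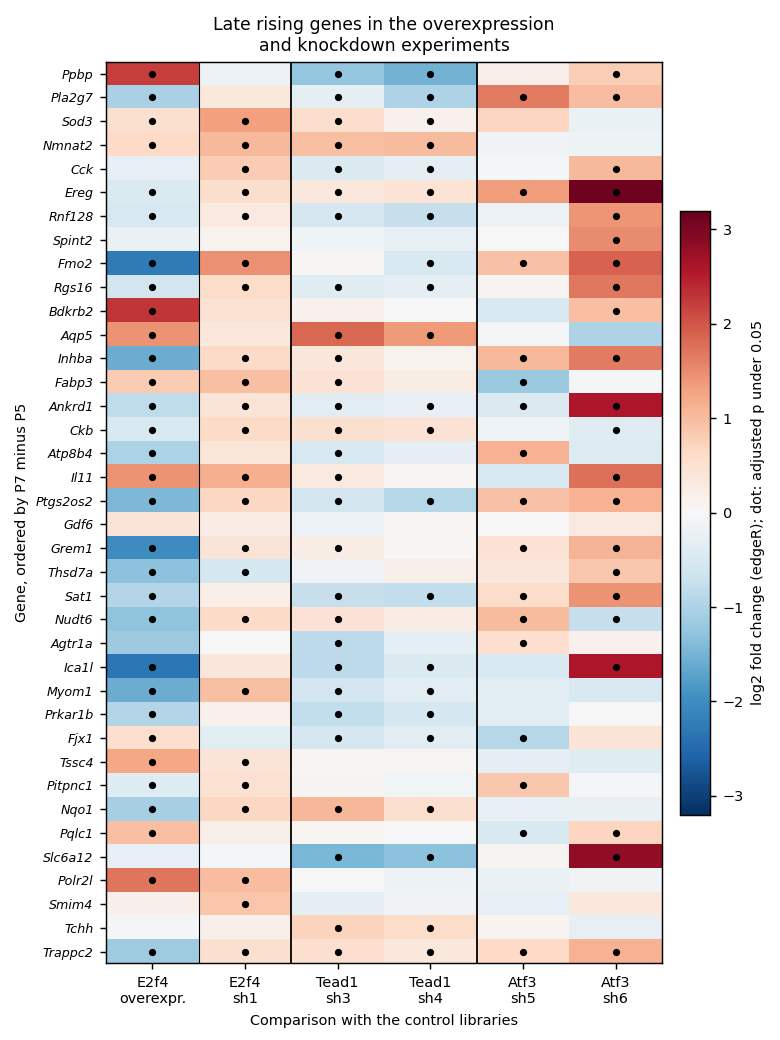
Log2 fold change (colour, edgeR) of the 38 late rising genes (rows, ordered by P7 minus P5) against the control libraries in the 6 comparisons (columns). A dot marks an adjusted p under 0.05. The E2f4 sh1 column holds 22 dots on genes that rose and 1 on a gene that fell, and the Atf3 sh6 column 20 and 2.

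A threshold of 2-fold on top of the adjusted p left fewer genes. With E2f4 overexpression 6 of the 38 rose and 12 fell (7.69% and 10.4% of all genes, 18.1% either way), and with sh1 4 rose and 0 fell (1.46% and 0.211%, 1.67% either way). With Tead1 sh3 2 rose and 2 fell (1.99% and 0.722%, 2.71% either way), as they did with sh4 (1.01% and 0.523%, 1.53% either way). With Atf3 sh5 5 rose and 1 fell (1.38% and 3.82%, 5.2% either way), and with sh6 15 rose and 0 fell (4.83% and 10.9%, 15.7% either way). At P3 against P1, 3 rose and 2 fell (2.4% and 6.58%, 8.98% either way).

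Across the 6 comparisons, Ereg, Ankrd1, Ptgs2os2 and Trappc2 passed the test in all 6, while Gdf6 passed in none, with differences between -0.19 ± 0.14 (adjusted p = 0.313) and 0.41 ± 0.21 (adjusted p = 0.121). Spint2 passed only with Atf3 sh6 (1.52 ± 0.24, adjusted p = 0.000393) and Smim4 only with E2f4 sh1 (0.88 ± 0.27, adjusted p = 0.0381), a call that was lost in 5 of 6 fits that left out a library. The starting levels of some genes differed between experiments, which had separate cells and controls. Cck had 372 to 603 CPM at P7, but 44.7 to 53.9 CPM in the nt libraries of the Atf3 experiment and 17.1 and 34.6 CPM with the E2f4 control vector. Ereg had 18 to 26.4 CPM at P7 and 122 and 105 CPM with that vector. Sod3 in contrast had 82.8 to 99.5 CPM in the nt libraries of the 3 hairpin experiments and a mean of 93.3 CPM at P5.

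The ATAC-seq peaks were not used by the rule. The strongest peak within 1000 bases of a start site was ranked among all peaks of its sample, as a percentile from 0 (no peak) to 100. A peak was present in all 13 samples at 32 of the 38 promoters, against 59.3% of 24818 genes, in none at Ppbp and Tchh (27.2%), and in some samples at Fmo2, Aqp5, Atp8b4 and Myom1 (13.6%). The 24818 genes include genes under the CPM floor that the 38 had to pass, so these shares are of unlike sets. The share among genes at the floor was not computed. Most late rising genes thus had a promoter peak already at P1. Between P5 and P7, limma called 0 of the 36 genes with a promoter peak as stronger and 1 as weaker, against 0.398% and 1.17% of the 18068 genes tested (1.57% either way). At an unadjusted p under 0.05 there were 4 of the 36 and 3035 of all. The median difference in percentile was -0.32 for the 36 and -0.34 for all. The called gene was Atp8b4, with 56.4, 39.8 and 38.5 at P5 and 0.791, 0 and 8.24 at P7 (-41.9 ± 8.80 percentile points, limma adjusted p = 0.0413), while its RNA had risen, and the call was lost in each of the 6 fits that left out a sample (highest adjusted p of 0.124).

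**Figure D5:**
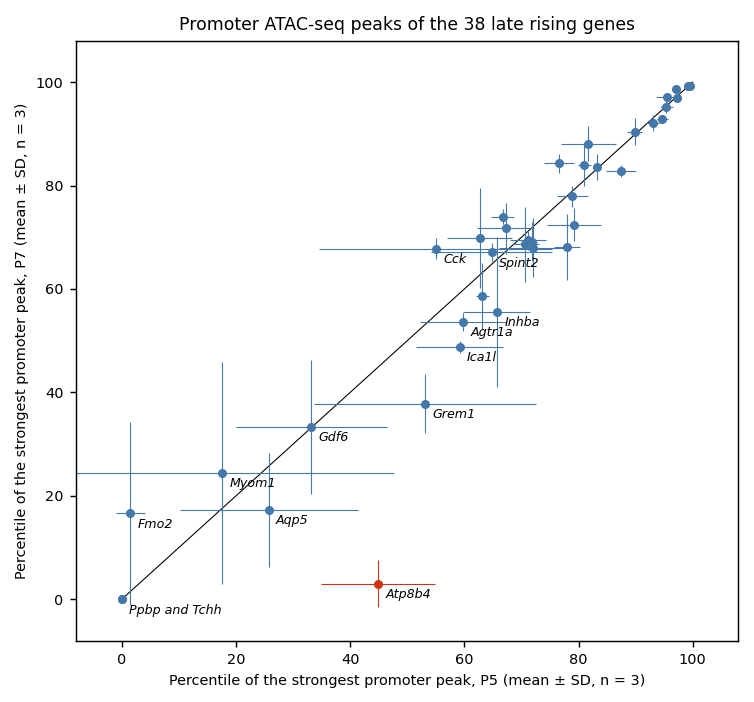
Percentile of the strongest promoter peak of each late rising gene at P5 (x axis) and at P7 (y axis), as mean with SD over 3 ATAC-seq samples each. The diagonal marks equal values. Most genes lie along it, and Atp8b4 lies furthest below.

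Between P1 and P7, 2 of the 36 genes had a stronger promoter peak and 7 a weaker one, against 9.31% and 22.2% of all genes tested (31.5% either way). The weaker peaks were those of Agtr1a (-18.9 ± 3.90, limma adjusted p = 0.0043), Rnf128 (-8.56 ± 1.69, adjusted p = 0.00338), Trappc2 (-12.7 ± 3.13, adjusted p = 0.0106), Thsd7a, Pqlc1, Inhba and Grem1. The stronger ones were those of Smim4 (2.51 ± 0.50, adjusted p = 0.00342) and Spint2 (22.7 ± 7.03, adjusted p = 0.0298). Grem1 had percentiles of 52.0, 55.7, 65.9 and 67.3 at P1, 66.1, 62.3 and 30.8 at P5, and 41.7, 31.2 and 40.5 at P7 (-22.4 ± 7.71, adjusted p = 0.0456). Inhba had 76.8, 75.5, 64.8 and 75.4 at P1 and 61.3, 39.1 and 66.4 at P7 (-17.5 ± 6.12, adjusted p = 0.0478). Leaving out any of the P7 samples reduced the 9 calls to 5, and those of Grem1, Inhba, Pqlc1, Spint2 and Thsd7a were lost in 2 to 6 of 7 such fits. The number of peaks from 1 kb to 50 kb away, scaled to the peaks of the sample, differed between P5 and P7 for 0 of the 38 genes by limma, against 0.105% of 24818 genes (0.0927% higher and 0.0121% lower), with 3 of the 38 and 2292 of all at an unadjusted p under 0.05. These lists hold no read counts, so their depth is unknown, and the number of peaks per sample rose from 142384 to 155681 at P3 to 200376 to 231558 at P7.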

How the data were processed

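Raw counts per gene were deposited for RNA-seq, which the authors made with HTSeq 0.12.4, strand ignored, from HISAT2 2.2.1 alignments (mm10) of reads cleaned by Trimmomatic 0.39. For ATAC-seq the authors aligned reads with Bowtie2 and called peaks in each sample with MACS2, and the deposited peak lists give a fold enrichment ratio, a −log10 p and q, and a score per peak. Bisulfite samples were not analysed here. The members and gene lists were chosen with earlier results of these data known.

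CPM were computed from counts over the sum of all genes, without summary lines (7.5% to 16.8% of the reads in the 28 libraries that have them). Counts were tested with edgeR 4.0.16 (TMM scaling, filterByExpr, quasi-likelihood test) in R 4.3.3, with all groups of an experiment in 1 fit, and p-values were adjusted by Benjamini-Hochberg over all genes tested. A gene was called at an adjusted p under 0.05. Promoter peaks were ranked by −log10 p within their sample, and percentiles were tested with limma 3.58.1, as was log2(peaks + 1) from 1 to 50 kb, scaled to 100000 peaks per sample. All tests are two-sided. The scripts were tested on simulated data.

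The text names the 12 genes with the largest step, the 2 just inside and outside each threshold, members of a gene list, the 4 called genes with the largest change each way per comparison, genes called in 3 or more of the 6 comparisons, genes with a called promoter peak, and the targeted genes. Other genes (Ptgs2, Fgf2, Cxcl5, Cxcl3, Pf4, Cxcl15, and members that complete a group or a pattern) were chosen after their values were seen. Alternatives were DESeq2 1.42.0, its size factors, other count filters, a replicate block, only the compared groups, a 2-fold threshold, other peak windows and measures, and the removal of each library. Replicates of a group differed by more than counting noise in all 50 pairs (chi-square per degree of freedom of 2.75 to 63.7).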

Additional observations from a re-analysis of the deposited data

Results flagged for a closer look

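A library that stood far from the other 3 of its passage, by a gap to the nearest of them that exceeded Dixon's 95% critical share of the group's range, was found in 17 of 188 groups of 4 (9.04%), where chance gives about 1 in 20. At P7, the ratios of gap to range were 0.849 for Ppbp (replicate 1 at 5.34 CPM, the others 7.64 to 8.05), 0.859 for Rnf128 (replicate 3 at 25.2, the others 20.6 to 21.2), 0.912 for Fmo2 (replicate 3 at 48.7, the others 30.1 to 31.7), 0.923 for Rgs16 (replicate 2 at 159, the others 112 to 115) and 0.836 for Atp8b4 (replicate 3 at 8.80, the others 6.2 to 6.63). At P5 it was 0.856 for Aqp5 (replicate 4 at 6.96 CPM, the others 3.24 to 3.78).

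At P3, the ratios were 0.932 for Ckb (replicate 4 at 49.0 CPM, the others 34.6 to 35.6), 0.85 for Thsd7a (replicate 1 at 4.97, the others 6.82 to 7.15), 0.898 for Sat1 (replicate 2 at 93.1, the others 103 to 104), 0.98 for Slc6a12 (replicate 1 at 4.18, the others 3.03 to 3.06) and 0.952 for Trappc2 (replicate 3 at 8.77, the others 11.1 to 11.2). At P1 they were 0.866 for Aqp5 (replicate 3 at 6.35 CPM, the others 4.93 to 5.12) and 1 for Ppbp, whose replicate 4 held its only read.

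In the promoter peak percentiles at P1, the ratios were 0.858 for Spint2 (replicate 1 at 33.5, the others 46.7 to 48.8), 0.878 for Inhba (replicate 3 at 64.8, the others 75.4 to 76.8), 0.865 for Ankrd1 (replicate 4 at 72.4, the others 85.2 to 87.2) and 1 for Myom1 (replicate 4 at 39.1, the others without a peak). The hairpins against 1 gene differed from each other by edgeR in 25 late rising genes for Atf3 (sh6 against sh5) and in 7 for Tead1 (sh4 against sh3). The Tead1 hairpins target the same site, shifted by 1 base.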

How the results depend on the processing

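Of 169 calls of a gene in a comparison, 125 were kept under every alternative other than the 2-fold threshold, 44 were lost under at least 1 of these and 0 reversed. The numbers of late rising genes called were 29 (E2f4 overexpression), 18 (E2f4 sh1), 26 (Tead1 sh3), 19 (Tead1 sh4), 16 (Atf3 sh5) and 22 (Atf3 sh6) with DESeq2. A threshold of over 2-fold, which admits fewer genes by construction, left 18, 4, 4, 4 and 6 called in the first 5 of these comparisons and 5 at P3 against P1. Leaving out 1 library gave 26 to 32, 17 to 22, 26 to 27, 18 to 23, 12 to 20 and 20 to 21 in the 6 comparisons, and 12 to 18 at P3 against P1.

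The rule gave 52 genes with TMM scaling, 51 with DESeq2 size factors, 26 with a floor of 10 CPM, and 35 to 50 without 1 library (50 without P5 replicate 4, 49 without P7 replicate 4). For the promoter peak at P7 against P5, 0 late rising genes were called with fold enrichment in place of −log10 p, 0 with a replicate block and 0 to 0 without 1 sample, and at P7 against P1, 5 to 8 without 1 sample.

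Atf3 itself in sh5 was -1.12 (edgeR adjusted p = 0.092) with only the 2 groups compared and -1.63 to -0.71 without 1 library, and in sh6 it was -0.79 (adjusted p = 0.00714) with only the 2 groups compared. The cause of these changes was not tested. Correlations of same-numbered passage libraries ran from -0.262 to 0.275, and not every pair was above 0.1, so the numbers were not taken to pair the samples. All 6 pairs of replicates 4 were above 0.1 (0.103 to 0.275), and the median was 0.0936 over same-numbered and -0.0225 over other pairs. A replicate block gave 32, 24, 28, 23, 16 and 22 genes called in the 6 comparisons, 19 at P3 against P1, 6 for the promoter peak at P7 against P1, and for Atf3 in sh5 -1.19 (edgeR adjusted p = 0.0552). Precision is limited by 2 to 4 libraries a group and, for the lowest genes, by few reads.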
